A study of Mus musculus with 230 samples.

Results

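The 10 genes described here encode transcription factors that set and keep the identity of sensory neurons: Prdm12, Isl1, Pou4f1, Pou4f2, Pou4f3, Runx1, Runx3, Tlx3, Prrxl1 (also called Drg11) and Maf. They were chosen by name, and all 10 were among the 53278 genes of the count table. Their RNA was followed in neurons of the dorsal root ganglia (DRG), the clusters of sensory cell bodies beside the spinal cord, of C57BL/6 X CAST/Ei mice. Neurons from dissociated L4 and L5 ganglia were picked by hand, and SMART-seq2 libraries, which cover whole transcripts and carry no molecular identifiers, were made from their cytoplasm. Every group shared that strain and that picking step. The low-input libraries formed 6 groups of 3: neurons labelled injury after damage to the sciatic nerve, or intact, each at 1, 8 and 12 months. The single cells formed 4 groups, with 18 intact and 21 injured cells at 1 month and 8 intact and 22 injured cells at 1 year. The labels name no animal for a library or a cell and give no number of neurons per low-input library, so p-values measure only the spread between these libraries, which may be technical.

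Sensory neurons acquire their identity in steps. Isl1 (a LIM homeodomain factor) and Pou4f1 (a POU factor, also called Brn3a) act in nearly all of them, with the related Pou4f2 and Pou4f3 in subsets. Prdm12 is needed for the lineage of pain-sensing neurons, and Prrxl1 and Tlx3 are homeodomain factors found in many of the same cells. Runx1 later directs the non-peptidergic pain neurons, which carry Mrgprd, while Runx3 directs the proprioceptors, large neurons that report muscle stretch and carry Pvalb. Maf is known from low-threshold touch neurons.

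Promoter sequences, from RefSeq annotation of GRCm38.p6, the build to which the table's gene coordinates also refer, matched 8 of the 10 genes. They show 2 features that bear on the members described most closely below. Runx1 and Runx3, the 2 members of 1 family, share a paired Runx motif at the upstream one of their 2 listed starts. In both lines the capitals mark 2 copies of ACCACA, the reverse complement of the Runx motif TGTGGT, whose starts lie 8 bases apart. The Runx1 stretch covers chr16:92826025-92826054 on the minus strand, with its copies at bases 29 and 37 after the start. The Runx3 stretch covers chr4:135120503-135120532 on the plus strand, with its copies at bases -134 and -126.
Runx1: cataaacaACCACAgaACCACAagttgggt
Runx3: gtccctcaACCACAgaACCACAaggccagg
Of 32851 promoters of 300 bases, 16.8% held TGTGGT on either strand, but only 7 (0.0213%) held 2 copies in 1 orientation at this spacing. Those 7 belonged to Runx1, Runx2, Runx3, Olfr24 and 3 predicted genes. The downstream starts of Runx1 and Runx3 held no TGTGGT and were rich in CG dinucleotides, with 35 and 45 in 300 bases, against 2 and 8 at the upstream starts and a median of 7 over all promoters.

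Prdm12, the member that differed most between groups, lies on chromosome 2 from 31640037 to 31655795 on the plus strand. The 250 bases before its start (chr2:31639787-31640036) are printed with each CG dinucleotide in capitals, since these are the sites that the study's bisulfite libraries read.
Prdm12: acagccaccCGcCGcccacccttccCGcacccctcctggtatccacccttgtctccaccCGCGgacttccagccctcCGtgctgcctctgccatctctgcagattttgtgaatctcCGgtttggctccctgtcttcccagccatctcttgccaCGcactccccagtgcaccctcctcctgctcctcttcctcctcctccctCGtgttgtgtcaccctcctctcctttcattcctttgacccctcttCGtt
They hold 10 CG dinucleotides, and the whole 300-base window holds 17, more than 68.6% of promoters. Of 4 motifs searched on both strands, none occurred in that window. They were TGTGGT (held by 16.8% of promoters), the homeodomain motif TAATTA (held by 5.29%), the E-box CACCTG (held by 20.2%) and TGCTGA (held by 19.5%). Pou4f1 had the most CG dinucleotides of the matched genes, 57, more than 99.8% of promoters, and Isl1 had 37.

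The low-input libraries held 7531967 to 19443627 counts on genes, of which 1 ribosomal RNA-like feature (CT010467.1) took 29.4% to 93.8%, a median of 65.7% in intact and 39.04% in injured libraries. Intact 12-month replicate 2 stood apart, with 93.8% on that feature, 770328 counts outside it and 10778 genes detected. Spike-in RNA took 1.20% to 26.9% of counts. All 12 libraries of 1 and 8 months had counts on Y-linked genes and none of the 6 libraries of 12 months did, so age and sex cannot be told apart in comparisons with 12 months. The 7 general neuron markers summed to 3746 to 7971 CPM (counts scaled to a common library size, here by the TMM method) in every library. The 3 satellite glia markers ranged from 1.19 to 1844 CPM and were highest in the injured 1-month libraries (1143 to 1844, against 7.65 to 511 in the intact ones). The 12 immune markers summed to at most 12.4 CPM except in intact 12-month replicate 2, at 32.5. In these mixed libraries, fewer neurons of a type and less RNA per neuron cannot be told apart.

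All 10 members passed the expression filter. Per kilobase of exon, the scale on which genes can be compared, the mean level over the 9 intact libraries was highest for Prdm12, at 43.6 ± 64.96 CPM per kilobase (SD, n = 9), whose SD exceeds its mean. Prrxl1 followed at 20.04 ± 8.60, then Pou4f1 at 17.4 ± 4.19, Isl1 at 13.4 ± 4.59, Tlx3 at 9.06 ± 7.97 and Pou4f3 at 7.34 ± 7.82. Runx1 stood at 1.99 ± 2.34, Maf at 1.76 ± 3.40, Runx3 at 0.560 ± 0.670 and Pou4f2 at 0.292 ± 0.399 CPM per kilobase. Each gene's mean in this order exceeded the next by less than its own SD. Among the pan-sensory factors, Isl1, Pou4f1 and Prrxl1 had an SD below their mean, and Runx1, Runx3 and Maf had an SD over the 9 libraries above their mean.

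**Figure D1:**
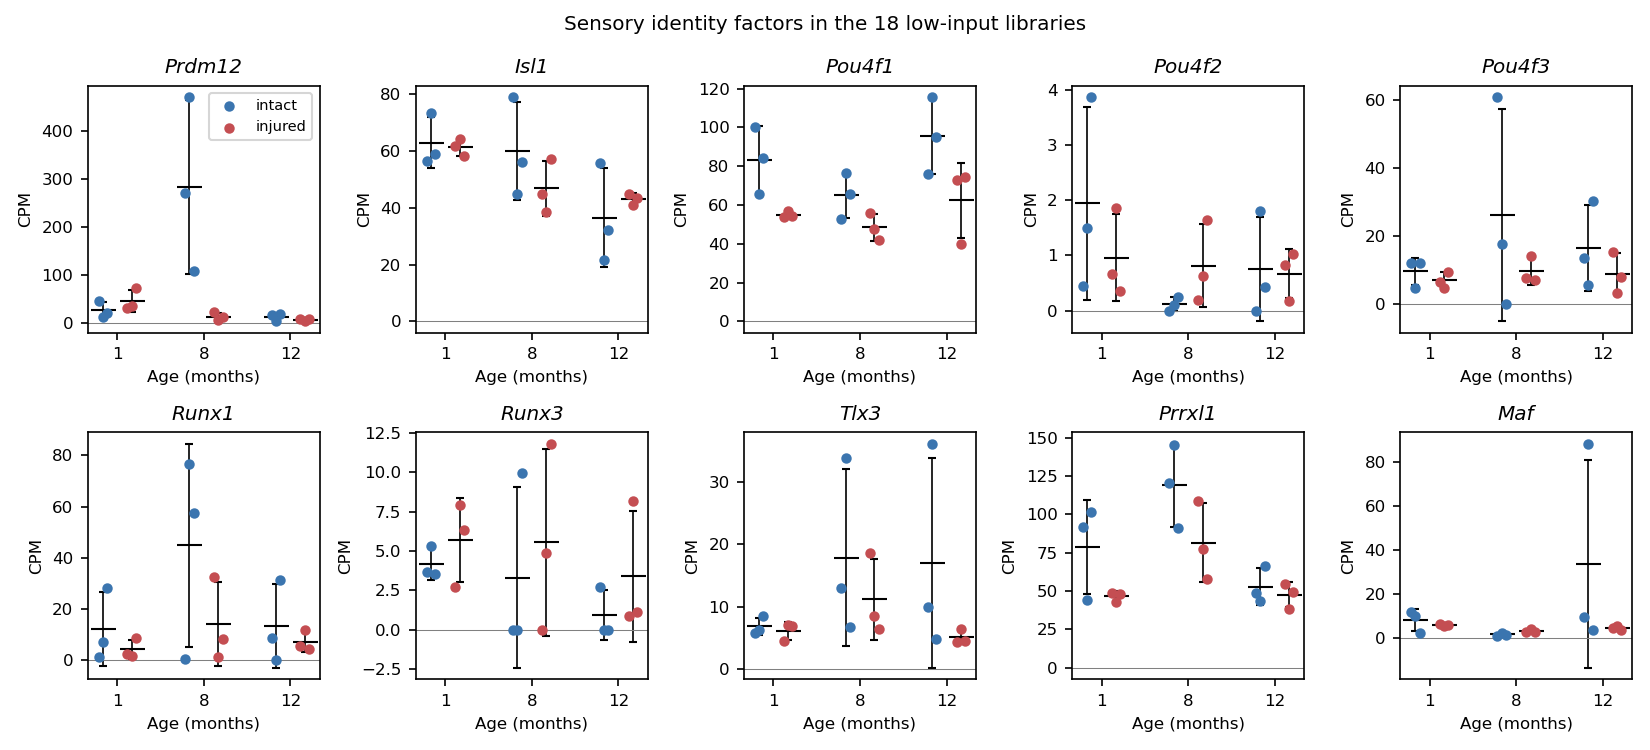
CPM (vertical axis, linear, 1 panel per gene) of the 10 factors against age in months in intact and injured low-input libraries. Each point is 1 library, and the dash and bar are the mean and SD of 3. Prdm12 is high in the 3 intact 8-month libraries, 108 to 471 CPM, and Pou4f1 has a lower injured than intact mean at each age.

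Prdm12 was the only member that edgeR called between injured and intact libraries, and DESeq2 also called Pou4f1 averaged over ages and Maf at 12 months. Its levels at 1 month were 46.6, 12.4 and 20.1 CPM in the intact libraries and 31.2, 35.2 and 72.6 in the injured ones, which overlap. At 8 months they were 272, 471 and 108 CPM in intact and 22.02, 5.14 and 11.5 in injured libraries, so every intact library lay above every injured one. At 12 months they were 16.9, 3.61 and 19.3 CPM in intact and 9.04, 3.22 and 8.23 in injured libraries, again overlapping. Intact neurons at 8 months were thus the group in which Prdm12 stood out. How many of all genes separate in 3 against 3 libraries was not counted, so overlap, here and below, only describes the values.

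The change with injury at 8 months was -4.46 ± 0.74 on the log2 scale (SE, adjusted p = 0.0096, edgeR quasi-likelihood test with Benjamini-Hochberg adjustment), in a comparison in which 0.957% of all genes tested were called. The call was not made when injured 8-month replicate 2 or 3 was left out (adjusted p = 0.0567 and 0.0511), with only the 6 libraries of that age in the fit (0.348), with spike-in scaling (0.127) or with the share of the ribosomal RNA-like feature as a covariate (0.144). Over all alternatives run for this comparison the log2 difference lay between -5.08 and -3.41. Satellite glia markers summed to 24.1 to 477 CPM in the intact and 253 to 594 CPM in the injured 8-month libraries, and their part in the result was not tested. At 1 month the log2 difference of Prdm12 was 0.815 ± 0.642, of the opposite sign. At 12 months it was -1.11 ± 0.67 (edgeR adjusted p = 0.398), and edgeR called neither. Averaged over the 3 ages, the log2 difference was -1.59 ± 0.38 (edgeR adjusted p = 0.0189) with TMM scaling. Spike-in scaling turned the sign of this average (1.15), and under it the median of all genes also moved, to 2.92. Relative to that median the spike-in value was -1.77. Same-numbered 1-month libraries deviated together, though no label pairs them. With a replicate block at all 3 ages the averaged difference was -1.44 (edgeR adjusted p = 0.0858). It was also not called without injured 1-month replicate 1 (0.0505).

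Gm13425, a predicted gene on the minus strand, overlaps Prdm12 in its span from first to last base. Counting ignored strand, so reads of the pair cannot be told apart wherever their exons overlap. Whether any exons do was not checked. Gm13425 had 92.8 ± 37.02 CPM in intact and 27.4 ± 17.2 in injured 8-month libraries (mean ± SD, n = 3 each), a log2 difference of -1.76 ± 0.54 (edgeR adjusted p = 0.146). In intact libraries it was lower at 12 than at 8 months by a log2 difference of -3.24 ± 0.60 (edgeR adjusted p = 0.00845), a comparison in which Prdm12 was also lower.

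Whether the injury difference in Prdm12 varied with age was tested jointly over the 3 ages. The adjusted p was 0.17 (raw p 0.000153) in edgeR, 0.000316 in DESeq2 and 0.0393 in limma-voom. In edgeR 0% of all genes tested, and so 0 members, were called in that test, with 1161 genes and 2 members at an unadjusted p below 0.05. DESeq2 and limma-voom each called 1 member there, Prdm12.

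In the comparison averaged over ages 8 of the 10 members had a lower estimate with injury. The members' median log2 difference was -0.63 beside 0.03 over all genes tested, of which 6.18% were called against 1 member of 10. Under spike-in scaling all 8 of these estimates turn positive, and all 8 lie below the median of all genes under that scaling.

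Pou4f1, the pan-sensory POU factor, came next to Prdm12. Its 3 intact and 3 injured values were 100.3, 65.9 and 84.2 against 53.7, 56.9 and 54.4 CPM at 1 month, a separation without overlap. At 8 months they were 52.9, 76.5 and 65.8 against 55.7, 47.8 and 41.9, which overlap. At 12 months they were 76.2, 115.6 and 95.2 against 72.8, 40.1 and 74.4, without overlap. The share of all genes that separate in this way was not counted. The averaged log2 difference was -0.54 ± 0.16, with an edgeR adjusted p of 0.0538, just above the threshold, and DESeq2 gave 0.00933. With spike-in scaling it was 2.39, which is -0.53 relative to the median of all genes.

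Isl1 had the smallest averaged injury difference of the members in edgeR with TMM scaling. In intact neurons the 1-month libraries had 56.6, 73.4 and 59.1 CPM, the 8-month libraries 79.01, 44.97 and 56.3, and the 12-month libraries 55.9, 21.7 and 32.2. The injured values were 61.7, 64.2 and 58.1, then 44.9, 38.5 and 57.3, then 44.9, 40.95 and 43.4 CPM. Injured and intact libraries overlapped at each age, and the averaged log2 difference was -0.07 ± 0.17 (edgeR adjusted p = 0.879).

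Prrxl1, which marks many pain neurons, had 91.6, 43.96 and 101.2 CPM in intact and 48.9, 42.8 and 47.98 in injured libraries at 1 month. At 8 months it had 120.1, 145.4 and 91.3 against 108.9, 77.5 and 58.1 CPM, and at 12 months 48.7, 43.3 and 66.5 against 54.7, 38.5 and 49.6. The groups overlapped at each age, and the averaged log2 difference was -0.49 ± 0.19 (edgeR adjusted p = 0.14). Tlx3 ranged from 4.78 to 36.1 CPM in intact and from 4.33 to 18.6 in injured libraries (log2 -0.79 ± 0.37, edgeR adjusted p = 0.242).

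The members tied to single neuron types were uneven among libraries of 1 group. Runx1 ranged from 0.515 to 76.6 CPM among the 3 intact 8-month libraries and from 0 to 31.5 among the intact 12-month ones. Runx3 had 0 counts in 4 of the 9 intact libraries and in 1 injured one, and reached 11.8 CPM at most. Pou4f3 ranged from 0 to 60.8 CPM in intact and from 3.28 to 15.3 in injured libraries, and Pou4f2 stayed at or below 3.86 CPM in all 18. The averaged log2 differences were -1.42 ± 0.79 for Runx1, 0.84 ± 0.94 for Runx3, -0.97 ± 0.64 for Pou4f3, 0.89 ± 0.78 for Pou4f2 and -0.72 ± 0.47 for Maf, with edgeR adjusted p-values of 0.34 to 0.673. An interval of about 2 SE for Runx1 reaches from no difference to a large decrease, and a missed threshold does not show that the levels were alike.

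**Figure D2:**
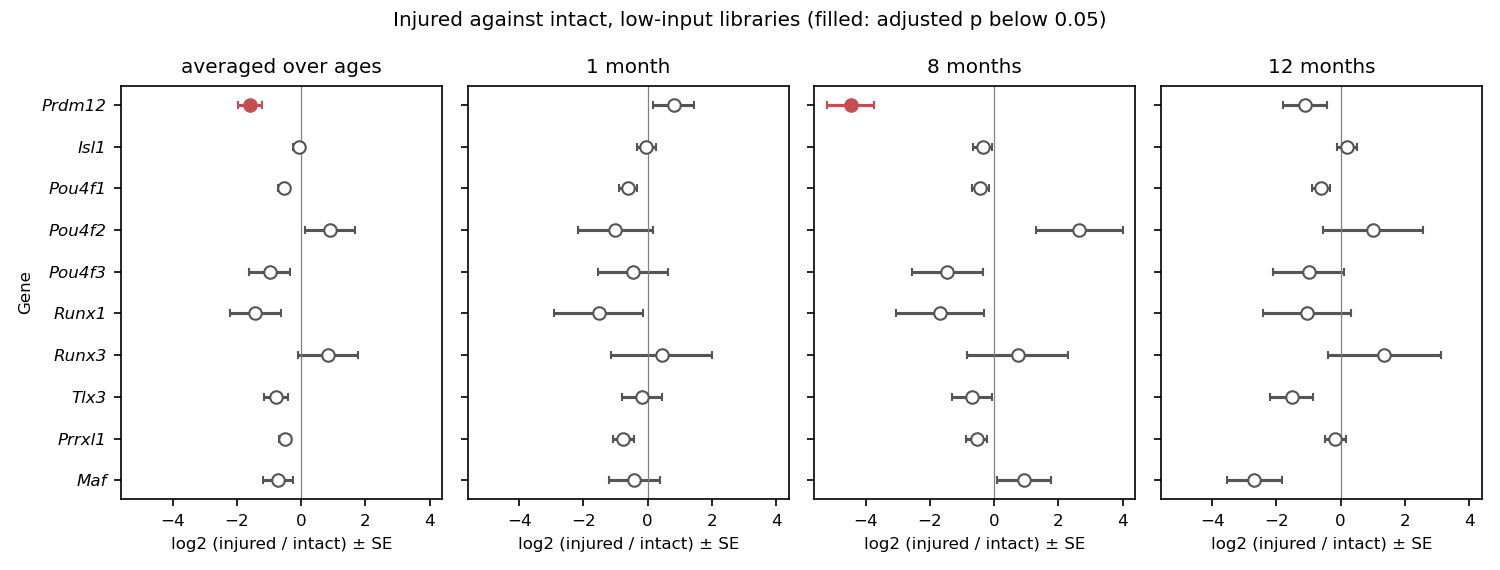
Log2 ratio of injured to intact low-input libraries (horizontal axis, dot ± SE from the edgeR model with TMM scaling) for each factor, for all ages averaged and each age (1, 8 or 12 months) alone. Filled red dots have an adjusted p below 0.05, which holds for Prdm12 averaged (-1.59) and at 8 months (-4.46), and with spike-in scaling the averaged Prdm12 value is 1.15.

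With injury, edgeR called 0 of the 10 members in the 1-month and 12-month libraries, in comparisons that called 0.232% and 2.99% of all genes tested. At 1 month 2 members, Prrxl1 and Pou4f1, had an unadjusted p below 0.05, and DESeq2 and limma-voom called 0. At 12 months Maf, Tlx3 and Pou4f1 did, limma-voom called 0 and DESeq2 called 1, Maf (log2 -2.93, adjusted p = 0.00823). Maf had 9.50, 88.5 and 3.48 CPM in the intact 12-month libraries against 4.77, 5.62 and 3.79 in the injured ones. The 88.5 CPM is that of intact 12-month replicate 2, the library that stood apart, where it rests on 49 counts.

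With age, intact neurons had more Prdm12 at 8 than at 1 month, by a log2 difference of 3.43 ± 0.70 (edgeR adjusted p = 0.0294), in a comparison calling 0.922% of all genes tested. No library of 1 age overlapped the other, and the share of all genes for which this holds was not counted. The call was not made without intact 1-month replicate 2 or 3, intact 8-month replicate 2, or injured 12-month replicate 1 or 3 (edgeR adjusted p = 0.0505 to 0.122). It was also not made with spike-in scaling (adjusted p = 0.198), with the covariate (0.355) or with only the 6 libraries compared (0.266).

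From 8 to 12 months, intact neurons had less Prdm12 (log2 -4.27 ± 0.74, edgeR adjusted p = 0.00673) and less Prrxl1 (-1.16 ± 0.33, adjusted p = 0.0451), and more Maf (4.17 ± 0.92, adjusted p = 0.0173). These 3 of 10 members stand beside 6.69% of all genes tested. Maf had 1.03, 2.49 and 1.56 CPM at 8 months, and without intact 12-month replicate 2 its log2 difference was 1.96 (edgeR adjusted p = 0.0423). With spike-in scaling the Maf difference was 0.14 (adjusted p = 0.971), against a median of -2.12 over all genes, and with the share of the ribosomal RNA-like feature as a covariate it was 2.74 (0.0637), neither of which edgeR called. The Prrxl1 call was lost when any 1 of 14 of the 18 libraries was left out (edgeR adjusted p up to 0.132), with RLE scaling (0.051), with spike-in scaling (log2 -3.57, 0.0769) and without the filter (0.0627), and limma-voom called none of the 3. With only the 6 libraries of these ages, none was called.

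The other age comparisons called 0 members in edgeR. They were intact 12 against 1 month (0.246% of all genes called, 2 members at an unadjusted p below 0.05, 0 by DESeq2 and limma-voom) and injured 8 against 1 month (0.225%, 2 members, 0 by DESeq2 and 1 by limma-voom). For injured 12 against 1 month the share was 0.113%, with 1 member at an unadjusted p below 0.05 and 1 called by each of DESeq2 and limma-voom. For injured 12 against 8 months it was 0.0633%, with 1 such member and 0 called by either tool. The member that the other tools called in injured neurons was Prdm12, with a log2 difference of -2.76 ± 0.69 from 1 to 12 months (edgeR adjusted p = 0.327, DESeq2 0.0105, limma-voom 0.00347).

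Few other genes of the same pathways were called with injury. The shares of all genes called, to be read beside each count here, were 6.18% averaged over ages, 0.232%, 0.957% and 2.99% with injury at 1, 8 and 12 months, and 6.69% from 8 to 12 months in intact neurons. Of 10 cofactors of these proteins, all tested, 0 were called in the 4 injury comparisons. From 8 to 12 months in intact neurons 3 of the 10 were called: Runx1t1 (-2.05 ± 0.46) and Ehmt1 (-1.70 ± 0.45) fell while Cbfb, the shared partner of the Runx proteins, rose (1.65 ± 0.46, log2, edgeR adjusted p = 0.0175, 0.0338 and 0.042). Of 29 other sensory factors, 23 were tested. Casz1, a zinc finger factor, fell with injury averaged over ages (-1.09 ± 0.25, edgeR adjusted p = 0.0136), with means of 52.1, 106.3 and 40.02 CPM in intact and 20.6, 44.1 and 24.5 CPM in injured libraries at 1, 8 and 12 months. From 8 to 12 months in intact neurons Bcl11b had a log2 difference of -4.71 ± 1.21 (edgeR adjusted p = 0.029). Its levels overlapped, with 1.31 to 29.5 CPM at 8 months and 0.257 to 1.81 at 12 months. Of 16 genes that depend on the members for their expression, 14 were tested and 0 were called with injury, and Avil, which encodes an actin-binding protein of sensory neurons, fell from 8 to 12 months in intact neurons (-1.55 ± 0.30, edgeR adjusted p = 0.0102). The median log2 difference of the 14 in that comparison was -1.78 beside -0.02 over all genes. That comparison includes intact 12-month replicate 2, and the calls of genes on these lists were not followed through the alternatives.

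The genes whose log2(CPM + 1) followed a member most closely over the 18 low-input libraries are given as a description, without a test, and libraries share groups. For Prdm12 they were Mipep, Fam71e1 and Fam207a (Pearson r 0.91, 0.88 and 0.88). For Runx1 they were Klf5, Ptgdr and Otoa (0.98, 0.98 and 0.97), and for Runx3 Wnt7a, Relt and Ndst4 (0.89, 0.87 and 0.87). Isl1 went with Naa60, Pcyox1 and Tubg2 (0.93 to 0.88), Pou4f1 with Rab37, Ogfrl1 and Hoxd1 (0.85 to 0.82), and Prrxl1 with Tbc1d1, Pirt and Tmed8 (0.91 to 0.88). Tlx3 went with Gm13889, Jund and Fbrs (0.93 to 0.87), Maf with Bola2, Zbtb18 and Ccdc85c (0.93 to 0.92), Pou4f3 with Ccng2, Ptk2b and E2f1 (0.81 to 0.80), and Pou4f2 with Gm44220, Arhgef33 and Hypk (0.77 to 0.75).

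Single cells showed which factors occur together. Of 69 cells, 68 had counts, and 50 had at least 200000 counts outside the ribosomal RNA-like feature: 10 intact and 16 injured cells at 1 month, and 8 intact and 16 injured at 1 year. These 50 are described at a threshold of 10 CPM, with CPM over counts outside that feature. Each group of cells counts as 1 sample, because no animal is named, so no test was made between groups. In 6 of the 50 cells, 5 of them injured 1-year cells and 1 an intact 1-year cell, satellite glia and Schwann cell markers held more counts than neuron markers. Of the other 44 cells, 43 had Pou4f1 and 42 had Isl1 at 10 CPM or above, and Prrxl1 did in 40. Of 12 immune markers, Lyz2 reached 10 CPM in 10 of the 50 cells and each of the others in at most 5, and these genes are not known from neurons.

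**Figure D3:**
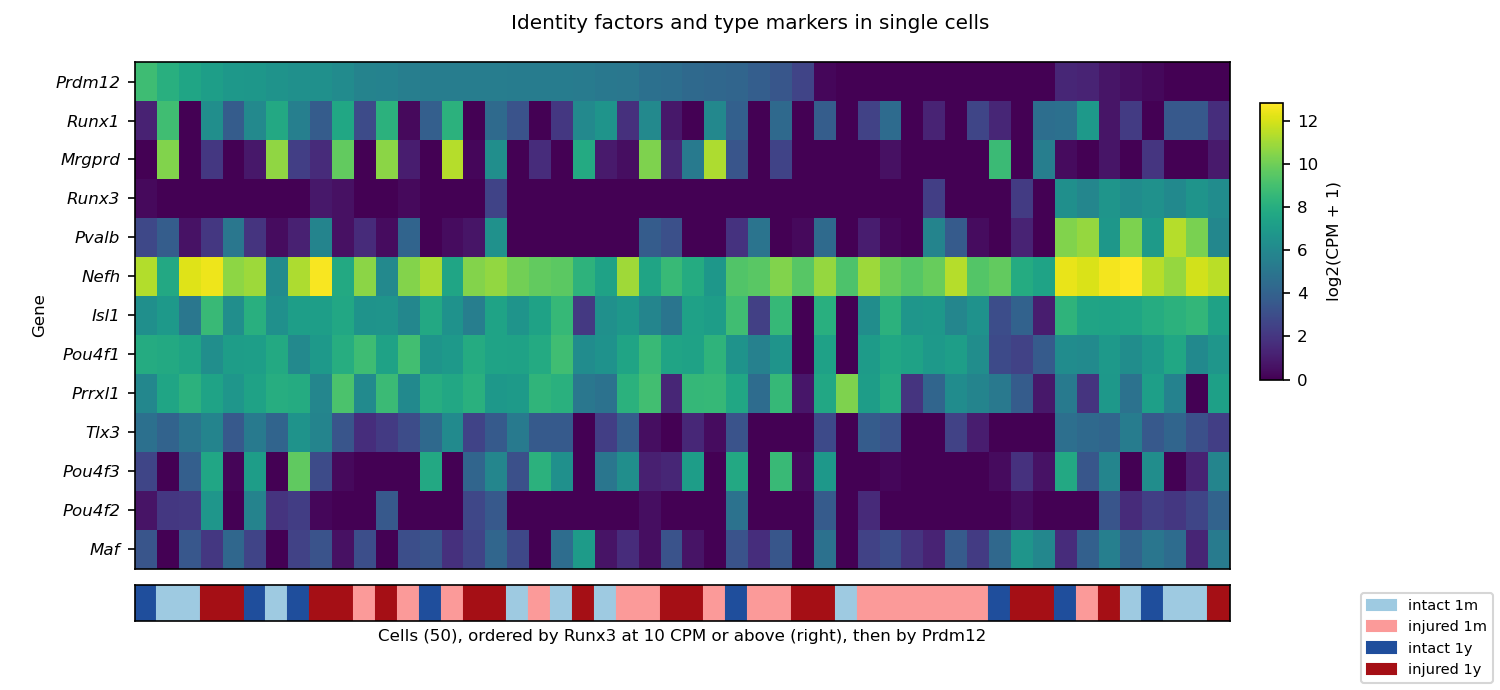
Level, as log2(CPM + 1) on the colour scale, of the 10 factors and of Nefh, Mrgprd and Pvalb (rows) in the 50 cells (columns), with the group of each cell in the strip below. The 8 cells at the right have Runx3 at 10 CPM or above, and in them Prdm12 is at most 1.60 CPM. Their Pvalb lies between 61.1 and 2657 CPM and their Nefh between 1768 and 7212 CPM. Nefh is also high in some of the other cells, up to 6591 CPM.

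Prdm12 and Runx3 did not reach 10 CPM in the same cell. Prdm12 did in 29 of the 50 cells and Runx3 in 8, and 13 cells had neither. Runx3 left a wide gap at the threshold, with 57.4 CPM in the lowest cell above it and 4.98 in the highest cell below it. In the 8 Runx3 cells Prdm12 ranged from 0 to 1.60 CPM, against 464 CPM in the highest cell of all. The 8 came from all 4 groups, with 3 intact and 1 injured cell at 1 month and 2 intact and 2 injured at 1 year. Without the 6 cells rich in glial markers, the counts were 27 cells with Prdm12, 8 with Runx3 and 0 with both, of 44.

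The 8 Runx3 cells had RNA of genes known from proprioceptors, at uneven levels. Pvalb was at or above 10 CPM in all 8, from 61.1 to 2657 CPM, and in 10 of the other 42, where it reached at most 87.1. Its lowest values in the 8 were 61.1, 109 and 125 CPM, all in 1-year cells, and the next was 1203 CPM. Pvalb thus did not set all 8 apart from the other cells. Nefh, a neurofilament gene of large myelinated neurons, lay between 1768 and 7212 CPM in them, against a median of 1227 over all 50 cells. High Nefh was not particular to them. It reached 6591 CPM among the 21 cells with Runx1 alone and 4629 among the 21 with neither (medians 643 and 860). In the 8 Runx3 cells Mrgprd was at most 2.92 CPM. Isl1 (165 to 353 CPM) and Pou4f1 (67.8 to 199 CPM) were present in each. Spearman's rho of Runx3 with Pvalb over the 50 cells was 0.72, and with Nefh 0.51.

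Of the 29 cells with Prdm12, 29 had Pou4f1 at 10 CPM or above, 28 had Prrxl1 and 27 had Isl1, beside 46, 44 and 44 of all 50 cells. Spearman's rho with Prdm12 was 0.43 for Pou4f1, 0.37 for Prrxl1 and 0.03 for Isl1. Tlx3, which was in 23 of the 50 cells, accompanied Prdm12 in 16 (rho 0.51 over 50 cells, which share depth and libraries).

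Runx1 had no gap at the threshold, with 10.8 CPM just above and 8.74 just below, and it was at or above 10 CPM in 25 cells. Of the 12 cells with Mrgprd, the receptor gene of non-peptidergic pain neurons, 10 were among these 25 (rho 0.53). The highest Runx1 value was 469 CPM and the highest Mrgprd value 2716 CPM. Runx1 and Runx3 were not strictly apart. Of the 8 Runx3 cells, 4 also had Runx1, from 10.8 to 119 CPM, and these 4 had Pvalb from 1203 to 2657 CPM and Mrgprd of at most 0.320 CPM. Of the 50 cells, 21 had Runx1 alone, 4 Runx3 alone and 21 neither.

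**Figure D4:**
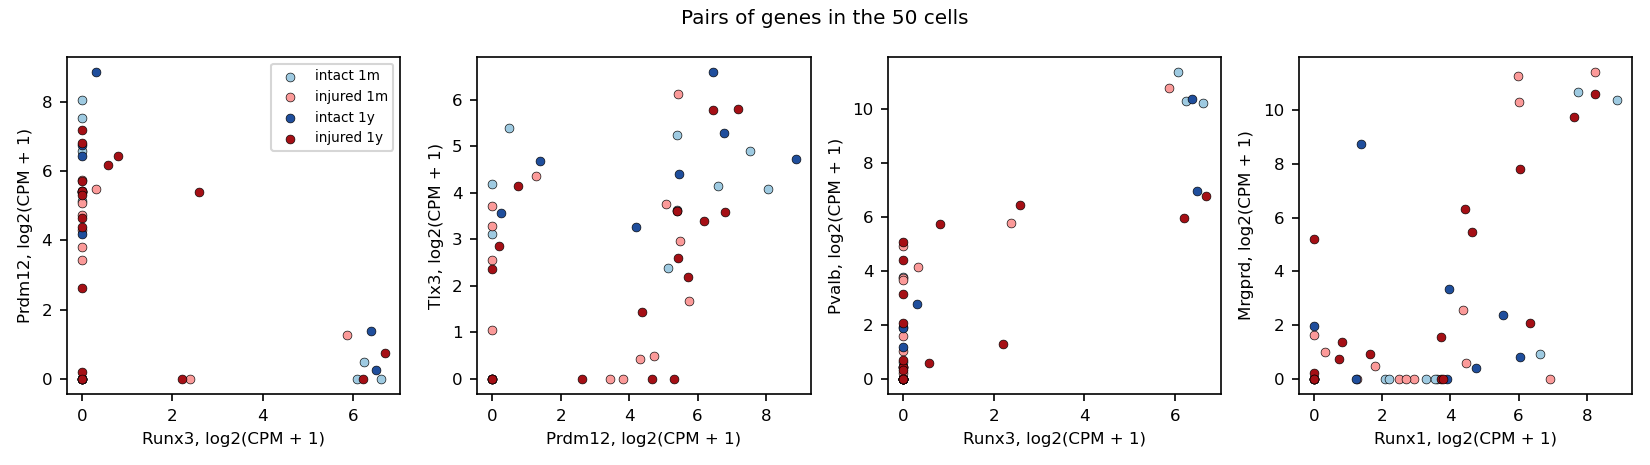
Pairs of genes in the 50 cells, each point 1 cell coloured by group, both axes log2(CPM + 1). The first panel shows Runx3 and Prdm12 high in separate cells, and the second Prdm12 with Tlx3. The third shows Pvalb, at 61.1 CPM or above in the 8 Runx3 cells and at most 87.1 CPM in the others. The fourth shows Mrgprd mostly in cells with Runx1.

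Pou4f3 and Pou4f2 were confined to fewer cells. Pou4f3 was at or above 10 CPM in 19 of 50 cells and reached 823 CPM. All 19 also had Isl1 (rho 0.52), Pou4f1 (-0.09) and Prrxl1 (0.26), which reached 10 CPM in 44, 46 and 44 of all 50 cells. Pou4f2 was at or above 10 CPM in 7 cells, and 6 of those had Pou4f3. Maf was at or above 10 CPM in 16 cells. Its 3 highest values, 131.9, 101.3 and 59.2 CPM, were in injured 1-year cells with summed glial markers of 16910 to 59805 CPM, and the next, 44.5 and 38.8, in Runx3 cells with high neuron markers. Maf was in 6 of the 8 Runx3 cells and in 10 of the other 42.

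Pooled over the cells of a group with all depths kept, Prdm12 had 69.1 CPM in intact and 20.8 in injured 1-month cells (exact 95% Poisson intervals 66.4 to 71.9 and 19.6 to 22.1, counting error only). At 1 year it had 90.99 CPM in intact and 38.5 in injured cells (88.5 to 93.5 and 37.2 to 39.7). The 1-year order rested on 1 intact cell at 463.8 CPM, without which the intact pool was 27.7 CPM, below the injured value. At 1 month the intact pool was 40.01 CPM without 1 cell, and the injured pool reached at most 23.5 CPM with any 1 cell left out, an alternative chosen after seeing the data. The low-input means at 1 month went the other way, 26.4 CPM in intact and 46.3 in injured libraries, which overlapped. Of 1-month cells with at least 200000 counts, 7 intact ones were named L4 and 3 L5, against 9 and 7 injured ones. Prdm12 had at least 1 count in 11 of 18 intact and 11 of 21 injured cells at 1 month (61.1% and 52.4%, exact Clopper-Pearson 95% intervals 35.7% to 82.7% and 29.8% to 74.3%). At 1 year the numbers were 7 of 8 and 15 of 21 (87.5% and 71.4%, intervals 47.3% to 99.7% and 47.8% to 88.7%). With each cell thinned to 200000 counts, Prdm12 had a count in 7 of 10 intact and 9 of 16 injured cells at 1 month, and in 6 of 8 and 10 of 16 at 1 year. Atf3 averaged 300 CPM in injured and 5.21 in intact low-input libraries. In 1-year cells with at least 200000 counts it reached at most 196 CPM in injured and 164 in intact cells. A shallower injured 1-year cell, with 187292 counts, had 929 CPM. Among injured 1-month cells with at least 200000 counts, the 6 without a Prdm12 count had 352 to 3634 CPM. The other 10 had at most 120 CPM, and intact ones at most 126. Whether each cell labelled injured had responded to injury was not tested.

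Runx3 pooled to 20.6 CPM in intact and 0.870 in injured 1-month cells, a difference carried by 3 intact cells and 1 injured cell with Runx3. At 1 year it pooled to 30.1 and 11.9 CPM, with 2 such cells in each group. Without 1 of those cells the pools were as low as 7.33 and 0.0784 CPM at 1 month and 16.9 and 3.498 CPM at 1 year. Pou4f1 pooled to 147 and 243 CPM at 1 month and to 107 and 140 at 1 year, higher in injured cells, whereas its low-input means were lower in injured libraries at each age. Pools give more weight to cells with more counts. Over cells with at least 200000 counts its median was 173 CPM in intact and 157 in injured cells at 1 month, the opposite order. At 1 year these medians were 96.8 and 131 CPM. Isl1 pooled to 132 and 125 CPM at 1 month and 214 and 130 at 1 year. Maf pooled to 5.50 and 3.93 CPM at 1 month, and to 12.5 and 25.02 at 1 year, where the injured value was 17.9 without cells rich in glial markers, an alternative chosen after seeing the data, and the intact value 8.13 without 1 cell. Pou4f3 pooled to 12.0 and 23.98 CPM at 1 month and to 188 and 38.7 at 1 year, and of the 8 intact 1-year cells 6 had it at 10 CPM or above. With 1 cell left out these pools were as low as 7.32 and 10.6 CPM at 1 month and 119 and 32.1 CPM at 1 year, the intact 1-year one without the cell at 823 CPM.

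Among the 16 injured 1-month cells, low Prdm12 went with the L4 ganglion in the cell's name and with Sprr1a, a gene induced in injured sensory neurons. In the 7 cells named L5, Prdm12 was 13.1, 18.8, 25.6, 32.6, 41.1, 42.4 and 44.1 CPM, and Sprr1a was at most 2.40 CPM. In the 9 cells named L4, Prdm12 was 0 in 6 cells and 1.40, 9.81 and 52.6 CPM in the others. The 6 L4 cells without a Prdm12 count had Sprr1a of 1425 to 8059 CPM, and the other 3 had 0 to 28.02 CPM. Most of the names also end in S, M or L, letters whose meaning is not given here. None of those 6 names ended in S, while several of the L5 names and an L4 name with Prdm12 did. The ganglion and this last letter can therefore not be told apart in the split. No Prdm12 count in cells with 705401 to 6004381 counts allows up to 4.25 CPM in the shallowest and 0.500 in the deepest of them, by the 3-count limit.

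These 6 cells were not Runx3 cells, with Runx3 of 0 in 5 and 4.25 CPM in 1, and they kept Isl1 (57.1 to 302 CPM) and Pou4f1 (76.3 to 197 CPM). Their Nefh lay between 662 and 2653 CPM. In the 7 intact 1-month cells named L4, Prdm12 reached 10 CPM in 4. Over the 16 injured 1-month cells, the rho with Sprr1a was -0.78 for Prdm12, -0.47 for Prrxl1, -0.20 for Pou4f1 and -0.00 for Isl1, given as a description. Whether the cells without Prdm12 were of a type that lacks it or had less of it after injury was not tested. The part of the ganglion, or of the last letter of the name, was not tested either. In the injured low-input libraries at 1 month Prdm12 was 31.2 to 72.6 CPM while Sprr1a averaged 377 ± 233 CPM (n = 3). No injured 1-year cell among the 16 deep ones had Sprr1a at 10 CPM or above. With all depths kept, 3 of 21 did. Of these, 1 cell with 187292 counts had Sprr1a of 1554 CPM, Atf3 of 929 CPM and no Prdm12 count.

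**Figure D5:**
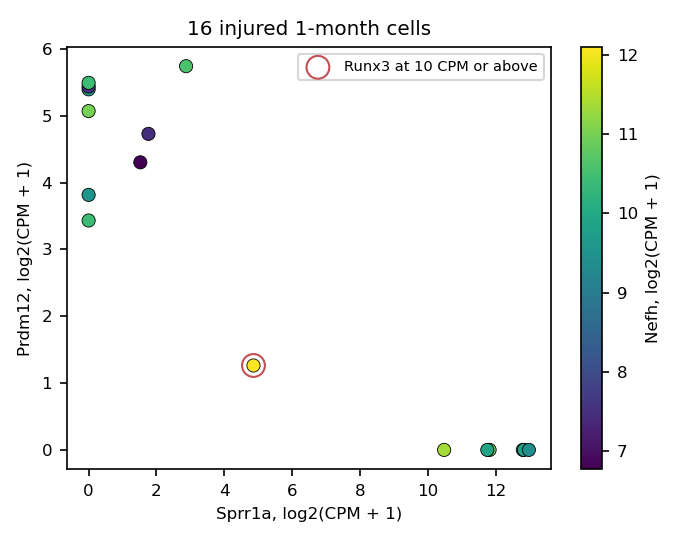
Prdm12 (vertical) against Sprr1a (horizontal), both log2(CPM + 1), in the 16 injured 1-month cells, coloured by Nefh, with the cell that has Runx3 ringed. The 6 cells with Sprr1a of 1425 CPM or more have no Prdm12 count, and the 9 cells with Prdm12 at 9.81 CPM or above have Sprr1a of at most 6.33 CPM.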

How the data were processed

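RNA of hand-picked neurons was measured in 18 low-input libraries and 69 single cells. Methylation libraries were not analysed here. Per the file headers, the deposited counts are whole read pairs per gene name over GENCODE vM16 exons and ERCC spike-ins, made with featureCounts without strand. Per the submitters' processing notes, Trim Galore and STAR were used with mm10. The deposited gene length served for levels per kilobase. Repeat deposits of 1 sample shared 1 column.

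Low-input counts were fitted with edgeR 4.0.16 (R 4.3.3): TMM scaling, filterByExpr, robust quasi-likelihood test over all 18 libraries, Benjamini-Hochberg adjustment over 14212 genes, and a call at an adjusted p below 0.05. DESeq2 1.42.0, limma-voom (limma 3.58.1), RLE and ERCC scaling, removal of CT010467.1 or its share as a covariate, no filter, fewer libraries and each library left out were alternatives. The edgeR script was tested on simulated counts. Same-numbered 1-month libraries deviated together (r 0.16, 0.29 and 0.41 over 3992 genes), against -0.39 to 0.12 for differently numbered ones. At 8 months (-0.42, -0.34 and 0.12) and 12 months (-0.06, -0.06 and 0.04) same-numbered libraries did not. Differently numbered 8-month libraries reached 0.55, so such values also occurred without a shared number, and pairing by animal is not shown. The replicate block was fitted at all 3 ages. Cell CPM leaves out CT010467.1, and intervals and limits from a count of 0 cover counting error only. All 10 members are described, and other genes come from lists of cofactors, sensory factors and dependent genes and are named where called. The members and lists were chosen with earlier results of these data known. Some called genes of these lists are not reported here.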

Additional observations from a re-analysis of the deposited data

Results flagged for a closer look

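Among the 8 intact 1-year cells, 1 cell stood far above the other cells of its group for each of 3 members. The highest values were 463.8 CPM for Prdm12, 823.4 CPM for Pou4f3 and 95.68 CPM for Tlx3. The gap to the next cell, divided by the range of the 8 cells, exceeded Dixon's critical value for 8 values. Chance alone passes that limit in about 1 in 20 groups, and many groups of cells were examined.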

How the results depend on the processing

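Spike-in (ERCC) scaling turned the averaged injury difference positive for 8 members: 1.15 for Prdm12, 2.75 for Isl1, 2.39 for Pou4f1, 2.24 for Pou4f3, 0.79 for Runx1, 1.84 for Tlx3, 2.34 for Prrxl1 and 2.53 for Maf (log2), beside a median of 2.92 over all genes. With the share of CT010467.1 as a covariate the averaged sign turned for Runx1 (0.49), Runx3 (-3.07), Tlx3 (0.69) and Maf (1.23), and in limma-voom for Pou4f3 (0.23) and Maf (0.019). With each library left out in turn, Isl1 lay between -0.142 and 0.084 (0.013 without intact 8-month replicate 1) and Maf between -0.912 and 0.018. Members called with injury averaged over ages, 1 in edgeR, numbered 2 with RLE scaling, 8 with spike-in scaling, 3 without the filter, 2 in DESeq2, 0 with the covariate, 0 with the replicate block and 0 to 2 with a library left out. For injury at 8 months, with 1 called, there were 0 with spike-in scaling, 2 without the filter, 0 with the covariate, 0 with only 6 libraries and 0 to 1 with a library left out. For injury at 12 months, with 0 called, there were 10 with spike-in scaling, under which the median of all genes was 5.38. There were 1 without the filter, 1 in DESeq2 and 0 to 1 with a library left out. For intact 8 against 1 month, with 1 called, there were 0 with spike-in scaling, 3 without the filter, 0 with the covariate, 0 with only 6 libraries and 0 to 2 with a library left out. Spike-in scaling called 10 for intact 12 against 1 month, where edgeR called 0, beside a median of -4.32 over all genes. The share of all genes called under spike-in scaling was not counted, so its counts are not a result about the members. For intact 12 against 8 months, with 3 called, limma-voom and the fit of only 6 libraries each called 0. In injured neurons, where edgeR called 0, the fit without the filter called 2 and limma-voom 1 for 8 against 1 month, and the fits without the filter, in DESeq2, in limma-voom and of only 6 libraries each called 1 for 12 against 1 month. For the difference of injury between ages the fit without the filter called 2, and DESeq2 and limma-voom each 1. The cause was not tested. The replicate block changed no other call among the averaged results, and for Prdm12 at 8 months its adjusted p was 0.0455. The number of libraries per group limits all of these, and in cells depth limits genes near 10 CPM.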
